A study of Mus musculus with 9 samples.

Results

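The mitosis and G2/M genes described here are 53 mouse genes that encode the cyclins, kinases, motors and chromosome proteins of cell division, taken by symbol from a list that was drawn up with earlier results of these data known. They are 53 of the 54281 genes in the deposited files, and all 53 passed the filter on low counts, which kept 23834 genes. Their RNA was measured by bulk RNA sequencing in Comma-1D, a mouse mammary epithelial cell line. The cells were sorted by 2 surface proteins: population B carried much Sca-1 and little EpCAM, population L little Sca-1 and much EpCAM, and population bi much of both. Each population was present as control, transduced with activated MYC and transduced with activated Her2. That gives 9 libraries, 1 for each population and arm. The labels give neither the vector, the species of the oncogenes, nor whether the arms were separate cultures, and nothing says whether the control cells carried a vector. With 1 library per population and arm, each p-value below is set against the spread left between libraries once population and arm are fitted. In the additive fits this spread holds arm effects that differ between populations together with noise between libraries, which may be technical. The fits cannot tell these apart.

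Cells enter mitosis when Cdk1, bound to cyclin A or cyclin B, is activated by Cdc25 phosphatases, and leave it when the anaphase-promoting complex, with its partner Cdc20, marks cyclin B and securin for destruction. Most of these genes are transcribed periodically, late in the cell cycle, by the MuvB complex together with B-Myb and Foxm1, and are held down in resting cells by the DREAM complex. MuvB binds a promoter element called the cell cycle genes homology region (CHR), and NF-Y binds CCAAT boxes beside it. Their summed RNA is widely read as a measure of how many cells in a culture are dividing. In bulk RNA, fewer cells in G2 and mitosis and less RNA of these genes per cell cannot be told apart.

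The promoters of the members shared these elements. RefSeq promoter sequences (GRCm38.p6, 250 bases before and 50 bases after the start) were at hand for 42 of the 53. Only the first listed start of each gene was used, and it need not be the outermost. For Kif2c, on the minus strand, the stretch was chr4:117178723-117179022, inside the annotated gene, which runs to 117182639. The stretches of Cdca3, Cdca8 and Kif4 also lay inside their genes. The CHR was searched as TTTGAA or TTCGAA and the CCAAT box as CCAAT, both on both strands. No other spelling of either element was searched. The 2 motifs were counted independently, whether or not they overlapped. A CHR word stood in 34 of the 42 promoters (81.0%), against 19.4% of all 27025 promoters of the same length. A CCAAT word stood in 33 (78.6%), against 37.9% of all promoters, and both words in 30 (71.4%), against 7.7%. At least 2 CCAAT words were found in 24 member promoters (57.1%), against 12.2% of all. The CCAAT words lay upstream, with a median first base at position -67 from the start, and the CHR words close to the start itself, with a median first base at position 4. When only the 200 bases before the start were read, CHR words remained in 13 member promoters (31.0%, against 13.6% of all) and CCAAT words in 33 (78.6%, against 8112 of the 27025 promoters). A match is a description of the letters and not evidence of a bound site.

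The stretches below run from 120 bases before the start to 30 bases from it, 5′ to 3′ on the strand of the gene, with CHR and CCAAT words of either strand in capitals. Cdk1, Ccnb2, Cdc20, Ube2c, Top2a and Cenpf are shown because they hold both words, Psrc1 because its RNA departed most from the other members although it holds both, and Birc5 because it holds neither word in this stretch.
Cdk1 (chr10:69352883-69353032, minus strand): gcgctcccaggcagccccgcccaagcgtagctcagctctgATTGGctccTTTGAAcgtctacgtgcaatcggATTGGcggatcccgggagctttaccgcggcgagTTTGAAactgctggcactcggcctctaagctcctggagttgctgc
Ccnb2 (chr9:70421525-70421674, minus strand): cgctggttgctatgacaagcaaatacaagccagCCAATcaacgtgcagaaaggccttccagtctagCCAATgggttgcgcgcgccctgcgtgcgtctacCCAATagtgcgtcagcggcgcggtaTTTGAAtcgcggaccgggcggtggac
Cdc20 (chr4:118437314-118437463, minus strand): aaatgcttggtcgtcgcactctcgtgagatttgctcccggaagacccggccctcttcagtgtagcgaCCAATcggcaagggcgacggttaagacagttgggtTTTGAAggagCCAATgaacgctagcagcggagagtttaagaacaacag
Ube2c (chr2:164769809-164769958, plus strand): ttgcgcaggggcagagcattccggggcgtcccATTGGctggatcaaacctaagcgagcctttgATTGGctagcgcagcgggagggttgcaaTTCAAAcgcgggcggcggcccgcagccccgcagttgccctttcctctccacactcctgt
Top2a (chr11:99024160-99024309, minus strand): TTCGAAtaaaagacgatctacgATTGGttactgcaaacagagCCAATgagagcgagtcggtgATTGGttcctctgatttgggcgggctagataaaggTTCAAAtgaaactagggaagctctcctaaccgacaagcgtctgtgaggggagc
Cenpf (chr1:189688057-189688206, minus strand): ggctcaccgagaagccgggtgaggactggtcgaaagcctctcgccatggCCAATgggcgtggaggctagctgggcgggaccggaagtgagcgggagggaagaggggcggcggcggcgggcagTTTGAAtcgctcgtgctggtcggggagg
Psrc1 (chr3:108383684-108383833, plus strand): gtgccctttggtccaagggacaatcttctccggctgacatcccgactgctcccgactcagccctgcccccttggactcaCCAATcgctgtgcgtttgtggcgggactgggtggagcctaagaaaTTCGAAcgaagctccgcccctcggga
Birc5 (chr11:117849117-117849266, plus strand): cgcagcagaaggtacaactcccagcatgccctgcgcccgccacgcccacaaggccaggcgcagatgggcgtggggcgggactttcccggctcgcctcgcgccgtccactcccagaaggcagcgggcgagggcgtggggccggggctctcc
The 8 matched members without a CHR word of the spellings searched were Birc5, Ccnb1, Cenpe, Gtse1, Kif18a, Mad2l1, Nuf2 and Nusap1. Their fold changes are given beside those of the 34 members with one. In MYC against control the median log2 fold change was -0.84 with a CHR word and -0.93 without, and in L against B it was 0.92 and 0.97.

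**Figure D1:**
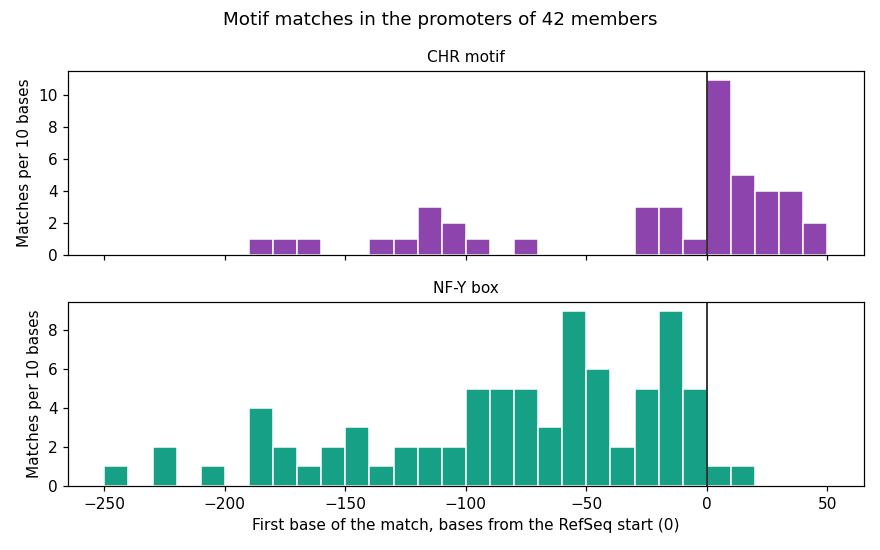
Positions of CHR words (upper panel) and CCAAT words, the NF-Y box (lower panel), in the promoters of 42 members; the horizontal axis is the first base of each match in bases from the RefSeq start and the vertical axis the number of matches per 10 bases. CCAAT words lie mostly upstream, 52 of 79 within 100 bases before the start, while the median CHR word begins at position 4.

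Library totals ran from 46.9 to 98.9 M reads, and the MYC library was the shallowest of each population. Among the members the fewest reads in a library were 70, for Psrc1. Myc and Erbb2 (Her2) were each highest in their own arm of every population. Epcam stayed at or below 0.764 CPM in B and reached 252 to 610 CPM in L and bi. The 8 luminal epithelial markers summed to 2.33 to 5.64 CPM in B, 945 to 2280 CPM in L and 573 to 711 CPM in bi, the 6 basal markers to 1610 to 5250 CPM over the 9 libraries, and the 7 fibroblast markers to 85.4 to 149 CPM in B and 18.9 to 38.9 CPM in L and bi. The 6 immune markers summed to at most 8.65 CPM and the 4 endothelial markers to at most 5.51 CPM.

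All 53 members together took 3916 CPM in the control, 2537 in the MYC and 2379 in the Her2 library of B. In L they summed to 6783, 3576 and 6389 CPM in control, MYC and Her2, and in bi to 7382, 3474 and 5611 CPM. CPM are counts per M reads after TMM scaling. The highest library of a member was bi control for 41 members, L Her2 for 7 and L control for 5. The lowest was B Her2 for 30, B MYC for 18, bi MYC for 3 and L MYC for 2. Per kilobase of the longest annotated mRNA, the topoisomerase Top2a was the most abundant member at 102 CPM per kb on average, followed by the proliferation antigen Mki67 at 62.3 and cyclin A (Ccna2) at 55.2. Psrc1, which encodes a spindle protein, was the least abundant at 2.82 CPM per kb.

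**Figure D2:**
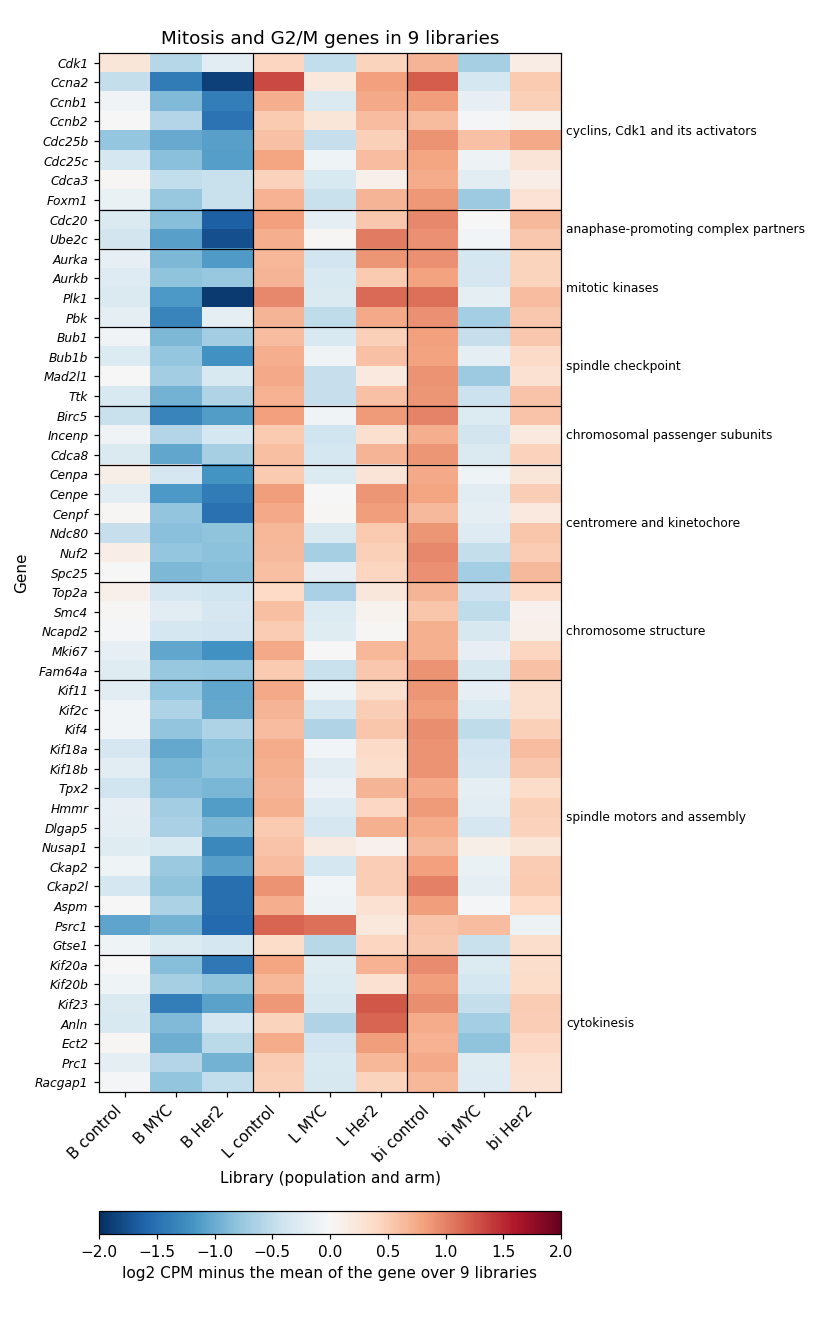
Each row is one of the 53 members grouped by role, each column one of the 9 libraries, and the colour is log2 CPM minus the mean of that gene over the libraries. B MYC and B Her2 lie below the mean of each member, and L control, L Her2 and bi control lie above it for all 53.

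The members moved together across the libraries. Over the 9 libraries, log2 CPM of a member correlated with the mean of the other members at a median Pearson r of 0.97, and 41 of 53 exceeded 0.9. The lowest were Psrc1 at 0.638 and Cdk1, the mitotic kinase itself, at 0.81. These values describe 9 libraries that share populations and arms. The share of other genes above 0.9 was not counted, so the 41 members have no background beside them. Among 10701 other genes of at least 5 CPM, the 5 most like the mean of the members were Parpbp (0.995), the kinesin gene Kif22 (0.994), the histone gene Hist1h4k (0.993), Cdca2 (0.991) and the splicing factor gene Srsf7 (0.986). Parpbp ranged from 10.9 CPM in B MYC to 33 CPM in bi control.

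The first comparison asked how the sorted populations differ, as an average over the 3 arms. Mitotic genes stood higher in both EpCAM-high populations than in B. By edgeR's quasi-likelihood test with Benjamini-Hochberg adjustment over all tested genes, 43 of 53 members rose in L against B, where 11.5% of all tested genes were called higher, and none fell. The median log2 fold change of the members was 0.89, against 0.04 for all tested genes. In bi against B, 38 of 53 rose, where 7.88% of all tested genes were called higher, with a median of 0.95 against 0.03. All 3 libraries of the higher population lay above all 3 B libraries for 18 members in L (17.2% of all tested genes) and for 16 in bi (14.5%). The 2 comparisons share the B libraries. Of the members, 37 were called in both, Ccnb2, Foxm1, Cenpf, Spc25, Anln and Ect2 in L against B alone, and Nuf2 in bi against B alone. A call in 1 of them alone does not show that L and bi differ. Within single arms, given without a test, the median log2 ratio of L to B was 0.80 in control, 0.54 in MYC and 1.45 in Her2, and that of bi to B 0.995, 0.56 and 1.35. More than 2-fold higher in L than in B were 16, 7 and 43 members in control, MYC and Her2, against 11.6%, 20.1% and 16.8% of all tested genes. In bi they were 26, 5 and 40, against 10.4%, 14.5% and 18.9%. In the MYC arm the share of members past 2-fold was thus below that of all tested genes in both populations.

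Among the cyclins, Cdk1 and its activators, 6 of 8 rose in L and 4 of 8 in bi. Cyclin A2 (Ccna2) stood at 93.8, 49.6 and 35.8 CPM in B control, MYC and Her2, at 324, 150 and 229 CPM in L and at 302, 102 and 187 CPM in bi. Every L and bi library was above every B library. The log2 fold change was 1.99 ± 0.25 (SE) in L against B (adjusted p = 0.000514) and 1.68 ± 0.25 in bi against B (adjusted p = 0.00231). Cdc25b, a phosphatase that activates Cdk1, was at 30.2, 25.7 and 24.3 CPM in B, 77.3, 37.5 and 71.2 CPM in L and 95.9, 77.4 and 86.7 CPM in bi, in the same order of arms. Its bi libraries did not overlap with B, and its log2 fold change of 1.69 ± 0.21 was the highest of the members in bi against B (adjusted p = 0.000895). Cyclin B1 (Ccnb1) stood at 70.4, 40.3 and 28.4 CPM in B, 123, 60.4 and 126 CPM in L and 132, 66.3 and 103 CPM in bi. It was higher in L than in B within each arm, although L MYC was below B control. Its log2 fold change was 1.15 ± 0.28 in L (adjusted p = 0.0154) and 1.11 ± 0.27 in bi (adjusted p = 0.026). Cdk1 itself was at 111, 63.2 and 80.2 CPM in B, 127, 67 and 128 CPM in L and 150, 59 and 104 CPM in bi. Its groups overlapped and it passed in neither comparison, with log2 fold changes of 0.32 ± 0.18 and 0.23 ± 0.18 (adjusted p = 0.275 and 0.488). Foxm1, which encodes the transcription factor of many of these genes, was at 87.3, 56.9 and 70.3 CPM in B, 155, 70.3 and 153 CPM in L and 176, 57.8 and 117 CPM in bi. It rose in L by 0.74 ± 0.22 (adjusted p = 0.0362), and its value in bi of 0.58 ± 0.22 did not pass (adjusted p = 0.114).

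The partners of the anaphase-promoting complex rose in both populations. Cdc20, its activator in mitosis, was at 56.1, 38 and 22.3 CPM in B control, MYC and Her2, 122, 60.7 and 100 CPM in L and 134, 68.5 and 108 CPM in bi. Each L and bi library was above the B libraries, and the log2 fold changes were 1.28 ± 0.27 and 1.41 ± 0.27 (adjusted p = 0.00898 and 0.00891). Ube2c, its ubiquitin-conjugating enzyme, was at 41.1, 25 and 15.7 CPM in B, 87.4, 53.7 and 108 CPM in L and 100, 51 and 76.9 CPM in bi, again without overlap with B.

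All 4 mitotic kinases rose in L and in bi. Plk1, the polo-like kinase of mitotic entry and spindle assembly, was at 47.8, 26.5 and 15.6 CPM in B, 114, 48 and 128 CPM in L and 125, 51.6 and 89.6 CPM in bi. Its log2 fold changes were 1.67 ± 0.36 and 1.53 ± 0.35 (adjusted p = 0.00884 and 0.0192). Aurkb, the kinase of the chromosomal passenger complex, was at 38.1, 26.1 and 27 CPM in B, 72.8, 36.8 and 65.6 CPM in L and 79.6, 35.9 and 61.7 CPM in bi. L MYC and bi MYC lay between B MYC and B control, and the log2 fold changes were 0.89 ± 0.19 and 0.90 ± 0.19 (adjusted p = 0.00921 and 0.0143). Of the passenger subunits, Birc5 (survivin) was at 42.8, 23.3 and 27 CPM in B, 103, 55.7 and 105 CPM in L and 116, 48.4 and 86.2 CPM in bi. None of its L and bi libraries overlapped with B, and it rose by 1.49 ± 0.19 and 1.38 ± 0.19 (adjusted p = 0.000563 and 0.00157).

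Spindle checkpoint genes rose in 3 of 4 cases in each population, and Mad2l1 was the member that did not pass. The checkpoint kinase Bub1 was at 43.5, 24.5 and 28.3 CPM in B, 70.3, 37 and 63.5 CPM in L and 81.2, 33.3 and 66.5 CPM in bi. It rose by 0.81 ± 0.19 and 0.85 ± 0.19 (adjusted p = 0.013 and 0.0155), while its MYC libraries in L and bi stayed below B control. Of the 6 centromere and kinetochore genes, 4 rose in L and 3 in bi. Cenpe, a kinetochore motor, was at 80, 42.6 and 35.5 CPM in B, 167, 94.2 and 174 CPM in L and 163, 79.9 and 132 CPM in bi, and rose by 1.48 ± 0.24 and 1.24 ± 0.24 (adjusted p = 0.00229 and 0.00906).

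Of the 14 spindle motor and assembly genes, 13 rose in each population, and Gtse1 was the exception in both. The spindle motor Kif11 was at 75.2, 50.7 and 42.2 CPM in B, 147, 81.9 and 109 CPM in L and 160, 77.7 and 108 CPM in bi, and every L and bi library exceeded every B library. Psrc1 was at 1.9, 2.06 and 1.34 CPM in B, 8.88, 8.44 and 4.57 CPM in L and 5.89, 6.07 and 3.67 CPM in bi. With no overlap, its log2 fold change of 2.01 ± 0.24 in L was the highest of the members in that comparison (adjusted p = 0.000316). Cytokinesis genes rose in 7 of 7 cases in L and 5 of 7 in bi, where Anln and Ect2 did not pass.

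Chromosome structure genes had the lowest median log2 fold change of the 9 roles, 0.35 in L against B and 0.43 in bi against B. Only Mki67 and Fam64a, of 5, passed in L and in bi. Mki67 was at 506, 276 and 244 CPM in B, 960, 560 and 894 CPM in L and 927, 507 and 764 CPM in bi. Top2a, which untangles sister chromatids, was at 549, 403 and 385 CPM in B, 675, 324 and 599 CPM in L and 812, 384 and 667 CPM in bi. Its L MYC library was the lowest of all 9, and its log2 fold changes of 0.19 ± 0.21 and 0.41 ± 0.21 did not pass (adjusted p = 0.601 and 0.264). Smc4, a condensin subunit, had the smallest value in bi, 0.22 ± 0.19 (adjusted p = 0.537).

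These population counts depended on single libraries. Without L Her2 the members called in L against B numbered 24, and without B Her2 26. In bi against B they numbered 17 without bi control, 20 without bi Her2 and 23 without B Her2. Of the 43 calls in L against B, 23 were kept in every alternative fit, and of the 38 in bi against B, 17 were. The call of Foxm1 in L against B was kept in 4 of the 9 fits without 1 library. It was lost with DESeq2 size factors. All genes called in either direction over the alternative fits ran from 3324 to 5574 in L against B. In bi against B all genes called ran from 1843 to 3796. The luminal and fibroblast markers and the depth given above also differed between B and the other populations, and their part in these differences was not tested.

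**Figure D3:**
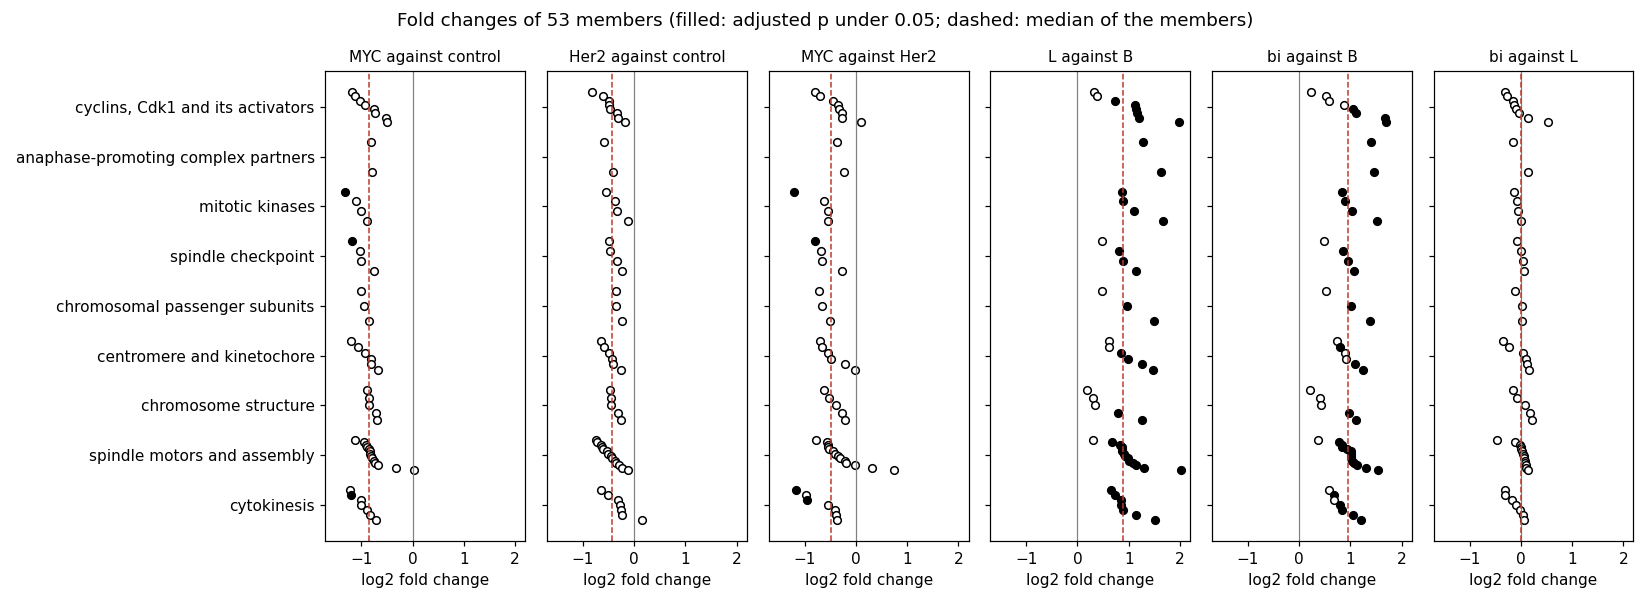
Log2 fold changes of the 53 members by role (rows) in the 6 comparisons (panels), with filled points for members at an adjusted p under 0.05 and a dashed line at the median of the members. The medians lie at 0.89 in L against B and 0.95 in bi against B, at -0.85 in MYC against control, and at 0.01 in bi against L.

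Between L and bi, which share high EpCAM, no member was shown to differ. None was called in bi against L by edgeR, where 0.751% of all tested genes were called, and DESeq2 and limma called none. One member, Cdc25b, reached an unadjusted p under 0.05, as 8.65% of all tested genes did, with a log2 fold change of 0.53 ± 0.21 (adjusted p = 0.464). Of the 53, 29 were higher in bi and 24 lower, a split that turned to 23 and 30 when libraries were scaled by their totals alone. At the ends, Psrc1 had -0.47 ± 0.22 and Cenpf -0.35 ± 0.28 (adjusted p = 0.651 and 0.945), and Top2a 0.22 ± 0.21 (adjusted p = 0.986).

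The next comparison set MYC against control as an average over the populations. Nearly all members had lower RNA with MYC, and few passed the threshold. Of 53, 52 had a negative log2 fold change, with a median of -0.85 against 0.03 for all tested genes. By edgeR's test 3 members fell, Pbk, Mad2l1 and Ect2, and none rose, where 0.264% of all tested genes were called lower. At an unadjusted p under 0.05 there were 50 members, where 13.9% of all tested genes reached it. In 34 members all 3 MYC libraries lay below all 3 control libraries, as they did for 7.02% of all tested genes. Psrc1 was the member with a positive value, 0.02 ± 0.23 (adjusted p = 0.983).

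Pbk, a mitotic kinase gene, was at 25.3, 46.1 and 54.4 CPM in the B, L and bi controls and at 11.5, 20.2 and 17.9 CPM with MYC. All MYC libraries were below all controls, and it fell by 1.31 on the log2 scale (SE 0.17, adjusted p = 0.023). Mad2l1, the checkpoint protein that holds Cdc20 inactive, was at 57.9, 98.2 and 108 CPM in the controls and 35.8, 42.2 and 35.1 CPM with MYC. It did not overlap and fell by 1.17 (SE 0.20, adjusted p = 0.0466). Ect2, the exchange factor that activates RhoA at the cleavage furrow, was at 71, 117 and 113 CPM in the controls, at 35.5, 53.8 and 40.1 CPM with MYC and at 48.2, 125 and 93 CPM with Her2. It fell by 1.20 with MYC (SE 0.20, adjusted p = 0.0465).

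Other members had values of like size that missed the threshold. Kif23, a motor of the central spindle, was at 48.3, 108 and 112 CPM in the controls, at 22.7, 47.3 and 42.3 CPM with MYC and at 28.1, 139 and 84.2 CPM with Her2. Its log2 fold change with MYC was -1.23 ± 0.24 (adjusted p = 0.0626). For Cdk1 the value was -1.03 ± 0.18 (adjusted p = 0.0535), for Foxm1 -1.11 ± 0.22 (adjusted p = 0.0626) and for Bub1 -1.01 ± 0.19 (adjusted p = 0.0559). Nusap1, a microtubule-binding protein gene, had the smallest negative value, -0.32 ± 0.22 (adjusted p = 0.585).

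The count of 3 depended on the fit. It was 31 without B Her2, 7 without B MYC, 1 without bi Her2 and 0 without L control, L MYC, bi control or bi MYC, and between 1 and 38 under the other settings, while the median of the members stayed between -1.11 and -0.75 in these fits. Over all alternative fits, genes called in either direction among all tested genes ran from 6 to 966. The MYC libraries were also the shallowest of their populations, and the part of depth in the result of the members was not tested.

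Within each population the ratio of the MYC library to its control was given without a test. Medians of the log2 ratios over the members were -0.62 for B, -0.93 for L and -1.09 for bi, against -0.03, 0.04 and 0.06 for all tested genes. More than 2-fold lower were 3 members in B, 18 in L and 35 in bi, against 11.7%, 3.84% and 6.29% of all tested genes. In the fit that adds a separate MYC effect for B, the effect in B minus its mean in L and bi had a median of 0.40, with 50 of 53 members positive, and no member was called by edgeR, as 0% of all tested genes were, or by DESeq2. Gtse1 alone reached an unadjusted p under 0.05, where 7.09% of all tested genes did. That median was 0.16 when libraries were scaled by their totals alone.

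**Figure D4:**
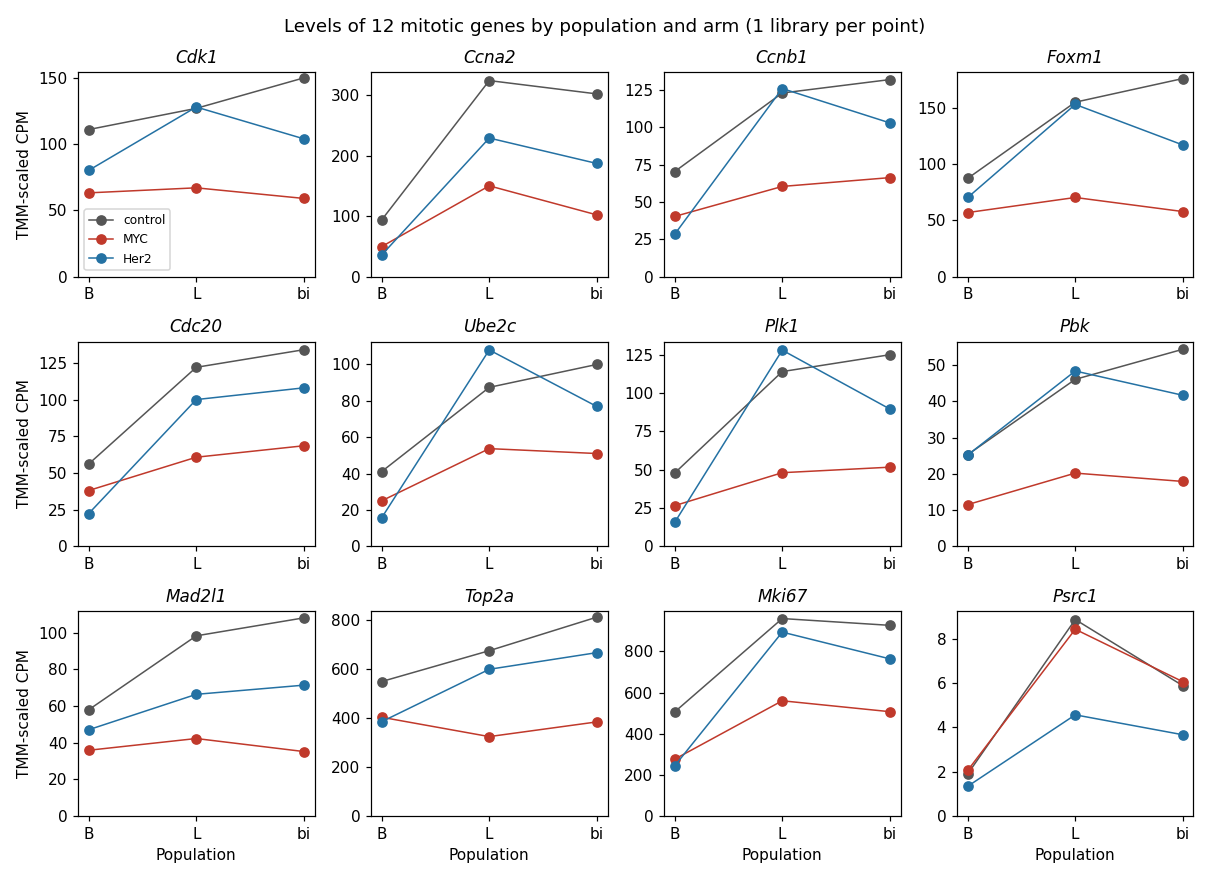
TMM-scaled CPM of 12 members (panels) in the populations B, L and bi (horizontal axis), 1 library per point, with lines joining the libraries of an arm. MYC lies below control in every population for 11 of them, and Psrc1, at 2.06 against 1.9 CPM in B, does not; Her2 drops below MYC in B for Plk1, at 15.6 against 26.5 CPM.

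Her2 was compared with control in the same way. No member was called by edgeR, where 0.0210% of all tested genes, 5 genes, were called in either direction, and DESeq2 and limma called no member. At an unadjusted p under 0.05 there were 18 members, where 8.80% of all tested genes reached it. The median of the members was -0.43, against -0.01 for all tested genes, and 52 of 53 were negative. It was -0.19 without B Her2. Anln, a scaffold protein of the cleavage furrow, was the positive one at 0.16 ± 0.25 (adjusted p = 0.986), with 143, 241 and 294 CPM in the B, L and bi controls and 138, 395 and 248 CPM with Her2. Only its L Her2 library exceeded all its controls. The largest negative values were those of Ccna2, -0.83 ± 0.24 (adjusted p = 0.287), and Aspm, a spindle pole protein gene, -0.74 ± 0.25 (adjusted p = 0.373). Aspm was at 78.6, 131 and 141 CPM in the controls, at 27.9, 98.1 and 104 CPM with Her2 and at 51.1, 73.9 and 77.1 CPM with MYC. The 5 genes called over all tested genes split into 3 higher and 2 lower, and into 24 higher and 8 lower with DESeq2 size factors and 23 and 9 with library totals alone.

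The ratios within the populations, given without a test, ran from -1.61 to 0.00 in B, from -0.95 to 0.71 in L and from -0.69 to -0.15 in bi. Medians of the log2 ratio of Her2 to control were -0.70 for B, -0.13 for L and -0.42 for bi, against -0.04, -0.02 and -0.08 for all tested genes. In B all 53 members were lower and 14 were more than 2-fold lower, against 11.7% of all tested genes. In L 18 members were higher, and no member passed 2-fold in L or bi. By role, the B median was -1.36 for the partners of the anaphase-promoting complex, -1.06 for centromere and kinetochore genes and -0.37 for passenger subunits. Plk1 had the lowest ratio in B, -1.61, against 0.16 in L and -0.48 in bi. Cenpf, a kinetochore protein gene, was at 140 CPM in B control and 48.9 CPM in B Her2, while L held 233 and 244 CPM. Ccnb2 was at 28.7 and 10.3 CPM in B, and at 41.6 and 44.1 CPM in L. Pbk, at 25.3 and 25.2 CPM, and Anln, at 143 and 138 CPM, had the ratios nearest to 0 in B. The 6 basal epithelial markers summed to 3760 CPM in B control and 1770 CPM in B Her2, and among them Acta2 was at 262 and 15.5 CPM. Over the populations none of the basal markers was called in Her2 against control, with a median of -0.88. At an unadjusted p under 0.05 there were 5 of 6, where 8.80% of all tested genes reached it. The 8 luminal markers had a median of 1.24 with none called, and 5 were positive and 3 negative, from -1.41 to 2.21. In control and Her2 they summed to 5.64 and 5.57 CPM in B, 945 and 2280 CPM in L and 662 and 573 CPM in bi. The part of these markers in the values of the members was not tested.

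The fit with a separate Her2 effect for B tested this difference, and no member passed by edgeR, where 0.00420% of all tested genes did, or by DESeq2. Its median was -0.40, with 46 of 53 negative. At an unadjusted p under 0.05 there were 11 members (Ccnb1, Ccnb2, Cdc20, Ube2c, Plk1, Cenpa, Cenpe, Cenpf, Ckap2, Aspm and Kif20a), all negative, where 11.4% of all tested genes reached it. Plk1 had -1.47 ± 0.38 (adjusted p = 0.294), Ube2c -1.36 ± 0.37 and Cenpf -1.33 ± 0.36 (adjusted p = 0.317 for both). Foxm1 had 0.00 ± 0.36 (adjusted p = 1) and Top2a -0.28 ± 0.38 (adjusted p = 0.757). The difference rests on 1 B Her2 library.

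**Figure D5:**
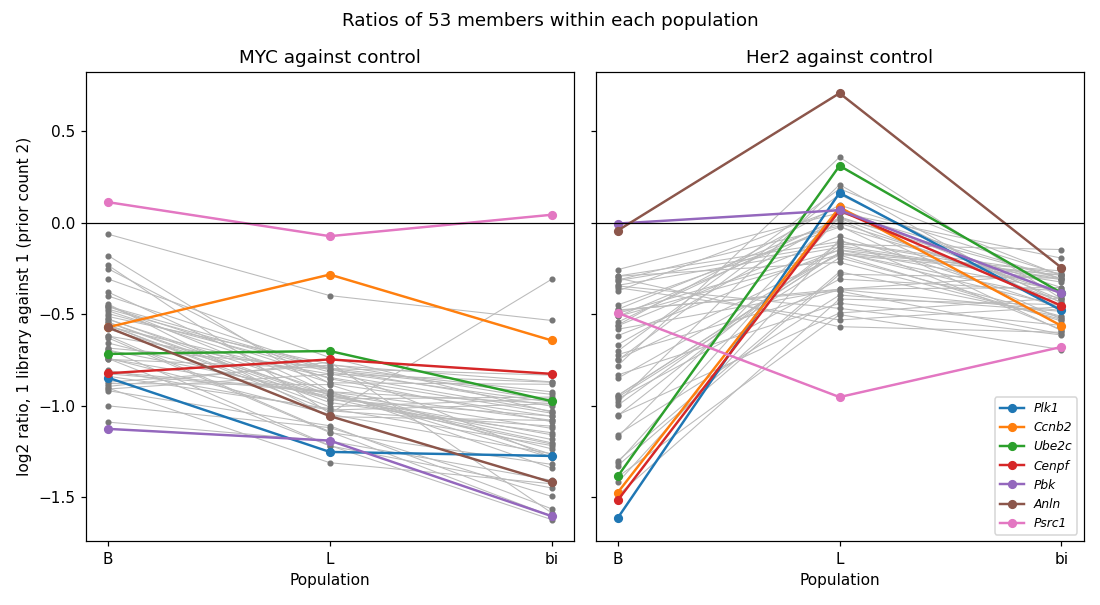
Log2 ratio of the MYC library (left) and the Her2 library (right) to the control library of the same population for each of the 53 members, with 1 library against 1 and lines joining a gene across populations; 7 members are coloured. For Her2, B lies lowest for many members, such as Plk1 at -1.61, while L spreads about a median of -0.13.

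In MYC against Her2, 4 members fell by edgeR's test, where 2.13% of all tested genes were called lower, and none rose. Pbk fell by 1.20 (SE 0.17, adjusted p = 0.00764), with 25.2 CPM in B Her2, 48.4 CPM in L Her2 and 41.7 CPM in bi Her2. Anln fell by 1.16 (SE 0.25, adjusted p = 0.0335), with 95.9, 116 and 110 CPM in the MYC libraries. Ect2 fell by 0.96 (SE 0.20, adjusted p = 0.0277) and the checkpoint kinase gene Ttk by 0.79 (SE 0.19, adjusted p = 0.0485). Pbk passed in each fit that left out 1 library, and the other 3 did not. The count was 14 without B Her2, 7 without B MYC and 1 without L MYC, L Her2, bi MYC or bi Her2. Over all alternative fits, genes called in either direction among all tested genes ran from 217 to 2089. This comparison and that of MYC with control share the MYC libraries. In 5 members all 3 MYC libraries lay below all 3 Her2 libraries, as they did for 7.19% of all tested genes. Medians of the members' log2 ratios within populations, given without a test, were 0.084 in B, -0.815 in L and -0.72 in bi. All tested genes had 0, 0.061 and 0.026. In B 33 members were higher with MYC and 20 lower, while 51 were lower in L and 52 in bi. Averaged over the populations, the median of the members was -0.48 against 0.02 for all tested genes, and 50 of 53 were negative. The positive ones were Psrc1 at 0.74 ± 0.23 (adjusted p = 0.104), Nusap1 at 0.31 ± 0.22 (adjusted p = 0.516) and Ccnb2 at 0.10 ± 0.27 (adjusted p = 0.905). Nusap1 was at 25.7, 35.8 and 34.4 CPM with MYC, at 12.9, 33.5 and 37.4 CPM with Her2 and at 26.8, 47.2 and 49.8 CPM in the controls.

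Genes that act with the members were read from lists of their own. Their counts stand beside 0.264% of all tested genes called lower in MYC against control, 11.5% called higher and 9.26% called lower in L against B, and 7.88% called higher in bi against B. Of 15 tested other regulators of mitotic entry and exit, 2 fell with MYC against control, Fbxo5 by 1.24 (adjusted p = 0.0326) and Melk by 1.20 (adjusted p = 0.0283), and in L against B 10 rose and 1 fell, the phosphatase inhibitor gene Ensa. Of 16 other condensin, cohesin and separase genes, 3 fell with MYC against control, with a median of -0.76, and 10 rose in L against B. Ncapg2, a condensin subunit, fell by 1.32 (adjusted p = 0.023). Of 31 other kinetochore and centromere genes 2 fell with MYC and 9 rose in L against B. Of 18 other spindle and cytokinesis genes 2 fell with MYC and 13 rose in L against B. Of 12 DREAM and MuvB subunits 1 fell with MYC, Mybl2, which encodes B-Myb, by 1.45 (adjusted p = 0.0141), and in L against B 3 rose and 1, Rbl2, fell. Of the 16 core genes of the anaphase-promoting complex, none was called in MYC against control, with a median of -0.22, and in L against B 2 rose and 3 fell, with a median of 0.08. In bi against B, 9 of the regulators, 7 of the condensin, 9 of the kinetochore and 12 of the spindle genes rose. There 1 regulator fell, and of the 12 DREAM and MuvB subunits 1 rose and 1 fell, where 1217 of the 23834 tested genes were called lower. Of the 16 core genes of the anaphase-promoting complex 2 rose and none fell in bi against B, with a median of 0.065. No gene of these lists was called in Her2 against control.

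The G1/S replication genes, a list of 32 that act one step earlier in the cycle, were set beside the members. With MYC against control 13 of 32 fell, where 0.264% of all tested genes were called lower, with a median of -1.19. Against Her2 23 of 32 fell, where 2.13% of all tested genes were called lower, with a median of -1.09. Among them E2f8, a transcription repressor gene, fell by 1.64 (adjusted p = 0.0135) and Cdc6, which loads the replicative helicase, by 1.75 (adjusted p = 0.023) against control. The G1/S genes also stood higher in the EpCAM-high populations. In L against B 14 of 32 rose, where 11.5% of all tested genes were called higher, with a median of 0.605. In bi against B 13 of 32 rose, where 7.88% were called higher, with a median of 0.637. In B the G1/S genes and the members had median ratios of opposite sign in the Her2 arm. The median log2 ratio of Her2 to control in B was 0.40 for the G1/S genes, with 6 of 32 negative, and -0.70 for the members, with 53 of 53 negative. In L it was -0.28 and -0.13, and in bi -0.40 and -0.42. Not all mitotic lists were as low as the members in B. There the other spindle and cytokinesis genes had a median of -0.695 and the condensin, cohesin and separase genes -0.171. The entry and exit regulators had -0.072 and the other kinetochore and centromere genes 0.008, with 15 of 31 negative. DREAM and MuvB subunits had 0.12 and the core of the anaphase-promoting complex 0.121. In the fit with a separate Her2 effect for B, no G1/S gene was called and their median was 0.67. At an unadjusted p under 0.05 there were 12 of 32, where 11.4% of all tested genes reached it. The difference between the lists was not tested.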

How the data were processed

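RNA of 9 libraries was sequenced. Per the file headers, the deposited files hold an expected count of reads, a TPM value and lengths for each gene. Per the submitters' processing notes they came from Salmon 0.9.1 on mm10, and the annotation release is not given in the sources used here. Per the labels' protocols libraries were stranded and depleted of ribosomal RNA, while the molecule label reads polyA RNA. For nearly all members the deposited lengths were below that of the longest annotated mRNA, for Cdk1 223 to 237 against 4375 bases. Deposited TPM therefore served as an alternative only.

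Expected counts were rounded, filtered with filterByExpr by arm (minimum count 10, total 15; 23834 genes kept) and scaled with TMM (edgeR 4.0.16, R 4.3.3). An additive quasi-likelihood model of population and arm on all 9 libraries had 4 residual degrees of freedom, and the fits with a separate effect in B had 2. A gene was called where its p, adjusted by Benjamini-Hochberg over all tested genes, was under 0.05. SE is the log2 fold change over the square root of F. Ratios within a population used a prior count of 2 and no test. Identifiers gave 53544 symbols with the version and 563 without, and Fam64a was read as Pimreg. DESeq2 1.42.0 and limma 3.58.1 were alternatives. The members and the other lists were chosen with earlier results of these data known. All members could be named; 13 chosen for function and the 2 largest changes each way per comparison were given in every library.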

Additional observations from a re-analysis of the deposited data

Results flagged for a closer look

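2 patterns had ratios of opposite sign between groups, and neither difference was tested. In MYC against Her2 the median log2 ratio of the 53 members was 0.084 within B, -0.815 within L and -0.72 within bi, each from 1 library against 1. In bi against L it was 0.171 within control, -0.058 within MYC and -0.125 within Her2.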

How the results depend on the processing

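The signs of the members' medians were kept under every alternative in each comparison but bi against L, where no member was called in any. For MYC against control the members called lower (3 in the report) and all genes called (87) became 1 and 54 with DESeq2 size factors, 19 and 256 with library totals alone, 38 and 944 without the filter on low counts, 35 and 966 with DESeq2, 36 and 845 with limma on log2(TPM + 1), and 38 and 680 without the Her2 arm. Leaving out 1 library gave 0 to 31 members and 6 to 492 genes, with a median from -1.113 to -0.745. For Her2 against control all genes called (5) became 32 with DESeq2 size factors, 32 with library totals, 619 without the filter, 509 with DESeq2, 0 with limma, 196 without the MYC arm and 0 to 89 without 1 library. For MYC against Her2 the members called lower (4) became 9 with library totals, 13 without the filter, 9 with DESeq2 and 8 with limma, and 1 to 14 without 1 library. All genes called there (1089) became 2089 without the filter, 1887 with DESeq2, 632 with limma, and 217 to 1499 without 1 library. Leaving out 1 library gave 24 to 43 members in L against B, and 17 to 40 members and 1843 to 3276 genes in bi against B. All genes called in L against B ran from 3324 to 5574 over all alternatives. For bi against L all genes called (179) became 698 without the filter, 663 with DESeq2, 9 with limma and 33 to 241 without 1 library. For the MYC effect in B minus its mean in L and bi, the members' median became 0.157 with library totals, and all genes called (0) became 1 with DESeq2 size factors, 2 with library totals, 67 without the filter and 87 with DESeq2. For the Her2 effect in B they (1) became 14, 256 and 304 with library totals, without the filter and with DESeq2. In the 200 bases before the start, 13 member promoters held a CHR word and 12 both words. Values under the alternatives were counted for single named genes that passed in the main fit. Of these values, 409 kept their direction and still passed, and 56 kept their direction but no longer passed. Named genes that did not pass in the main fit were left out of this count. The causes of these changes were not tested. The main model already blocks by population in the comparisons of arms and by arm in the comparisons of populations. No paired analysis was possible beyond it, because the labels give no replicate numbers and each population and arm has 1 library.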
